A study of Mus musculus with 8 samples.

Results

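Genes that mark astrocytes, or that astrocytes switch on when they become reactive, were followed in cells that had been sorted as somatostatin (SST) neurons of the tuberal nucleus (TN), a lateral hypothalamic region. The group was a list of 35 gene symbols. Of these, 34 had a match among the 35968 genes of the GENCODE M21 annotation of mm10, and 32 had enough estimated counts to be tested between the sexes, where 15194 genes were tested in all. *Ntsr2os* was not matched and has no value here, and the reactive genes *Lcn2* and *Steap4* were below the filter on low counts and have no test. The mice carried 1 copy of the Cre allele Ssttm2.1(cre)Zjh/J, which makes Cre recombinase wherever *Sst* is active. All received AAV2-flex-tdTomato in the TN, and red fluorescence then marked the cells in which Cre had acted. The tissue was dissociated with papain and live, nucleated, tdTomato-positive cells were sorted, with 1 bulk library for each of 4 females and 4 males (Flow-Seq). Neither a library of unsorted tissue nor a group without Cre was analysed here, and the labels give no age.

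Astrocytes are glial cells that take up the glutamate neurons release, buffer potassium and water, couple to each other through gap junctions and supply neurons with metabolites. Reactive astrocytes, as seen after injury or inflammation, make more of the intermediate filament protein GFAP and of secreted proteins such as SERPINA3N. In the hypothalamus, astrocytes surround the synapses and cell bodies of neurons that control feeding, and adult neurons express most of the genes named here at low levels at most.

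The sorted cells held RNA of neurons as labelled, and RNA of glia beside it. *Sst* had a mean of 1188 TPM (transcripts-per-million value) over the 8 mice and the synaptic gene *Snap25* a mean of 666 TPM. *C1qa*, a complement gene of microglia, had a mean of 394 TPM but ranged from 58.4 to 1085 TPM. All 13 genes of a core astrocyte list (*Gfap*, *Aqp4*, *Aldh1l1*, *Slc1a3*, *Slc1a2*, *Gja1*, *Gjb6*, *Agt*, *Fgfr3*, *Slc4a4*, *Mlc1*, *Hepacam* and *Slc7a10*) had counts in every mouse. Total estimated counts lay between 7.83 and 17.6 per mouse in units of 1000000. A count of 3, taken as the limit of detection, corresponded to between 0.148 and 0.458 CPM (counts-per-million value), and covers counting error only.

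Between mice, levels are given as CPM after scaling of the library totals by edgeR's TMM method. The summed level of the core astrocyte list was 662, 1022, 266 and 584 CPM across females 1 to 4 and 682, 1086, 792 and 1140 CPM across males 1 to 4. Female 3 lay lowest, and males 2 and 4 and female 2 lay highest, so that the sexes overlapped. The range over mice was 4.28-fold, or 1.95-fold without female 3. Beside this, the summed level of 10 neuron genes was 3026, 3287, 3464 and 3443 CPM across females 1 to 4 and 2993, 2331, 2673 and 2566 CPM across males 1 to 4. Neuron genes varied 1.49-fold in sum, and the lowest female, at 3026 CPM, lay just above the highest male, at 2993 CPM. Of all genes tested, 6.48% had every female above every male, and 4 of the 10 neuron genes did. Expressed against the neuron genes, the core astrocyte level was lowest at 7.69 per 100 in female 3 and highest at 46.6 and 44.4 per 100 in males 2 and 4.

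**Figure D1:**
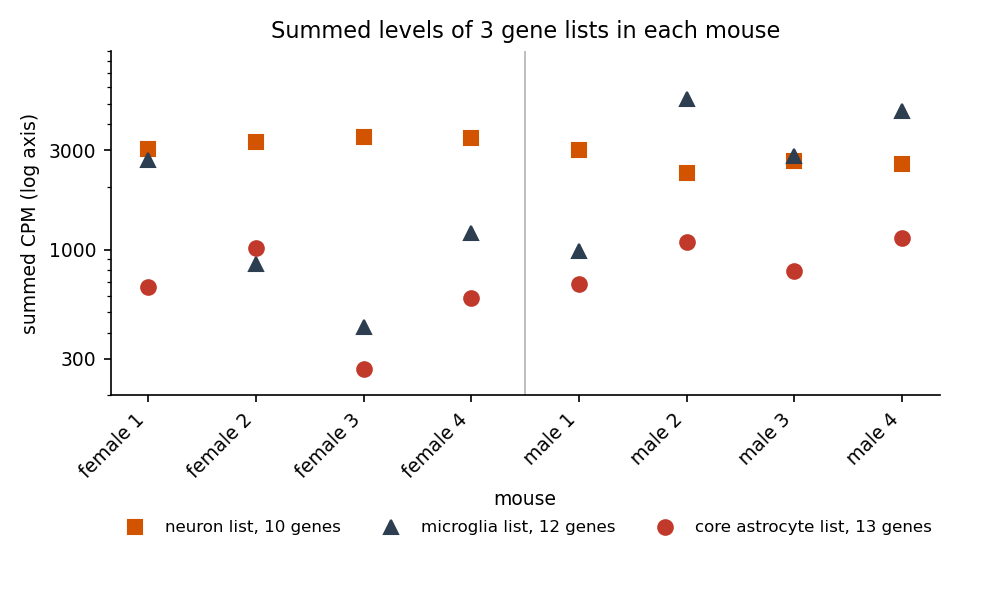
Summed CPM (log axis) of 13 core astrocyte genes, 12 microglia genes and 10 neuron genes in each of the 8 mice. The neuron sum stays between 2331 and 3464 CPM, the astrocyte sum drops to 266 CPM in female 3, and the microglia sum runs from 426 CPM in female 3 to 5267 CPM in male 2.

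In counts before scaling, female 3 was also the lowest mouse for the core list and the highest for the neuron genes. Her library held 5401 counts of the core list, against 5962 to 11851 in the other mice, but 70209 counts of the neuron genes, against 20377 to 38273 in the others. Her library was also the deepest, and the gene *Lars2* took 9.28% of her counts against 18.9% to 34.3% in the other mice. In bulk RNA, fewer astrocytes, less RNA per astrocyte and less of this RNA from any other source cannot be told apart. The microglia genes varied over the same mice, with a summed level of 2691, 850, 426 and 1201 CPM across females 1 to 4 and 984, 5267, 2828 and 4619 CPM across males 1 to 4. All 12 were lowest in female 3 and highest in male 2 or male 4, none was at 0, and their part in the astrocyte values was not tested.

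Compared per length, in TPM, the list covered a wide span of levels. The highest were *Sparcl1*, which encodes a secreted protein that helps synapses form, with 452 ± 155 TPM (SD, n = 8), and *Clu*, the secreted chaperone clusterin, with 399 ± 48.4 TPM. These were the 199th and 244th highest of the 24952 genes with any count. Next came *Glul*, *Aldoc* and *Mt3*, with 289 ± 121, 203 ± 40.7 and 141 ± 16.7 TPM. The lowest of the tested genes were *S100b*, *Cd44* and *Osmr*, with 7.33 ± 2.82, 6.33 ± 5.79 and 1.07 ± 0.450 TPM. *Gfap*, the gene most often used to mark astrocytes, had 31.5 ± 19.5 TPM and ranked 5358th, with 18 of the 34 genes above it. By mean CPM 19 genes lay above *Gfap*, and in single mice between 12, in male 2, and 29, in female 3.

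**Figure D2:**
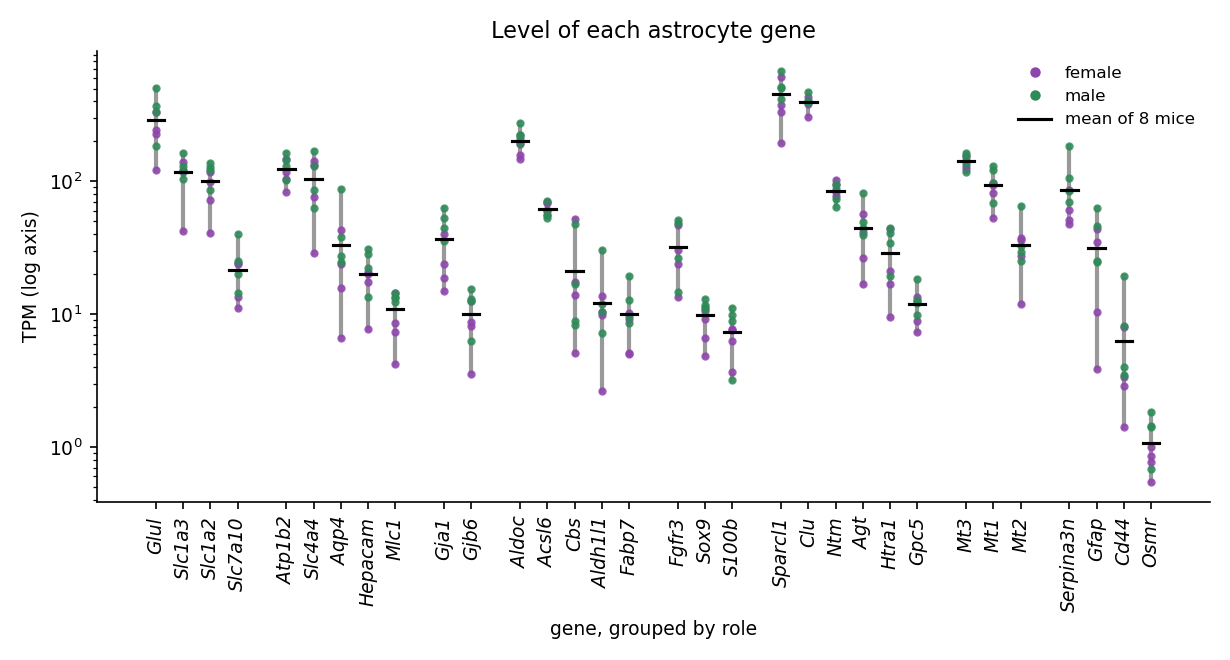
TPM (log axis) of each astrocyte gene with counts in every mouse, grouped by role, with a point per mouse, the mean of 8 mice as a black bar and the range as a grey line. *Sparcl1*, *Clu* and *Glul* sit highest, *Osmr* lowest, and *Gfap* spans from 3.89 to 62.9 TPM.

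Genes of glutamate handling were well covered. *Slc1a3* (chromosome 15, 8634124 to 8710764 in mm10) encodes the glutamate transporter GLAST and had 128, 204, 46.0 and 116 CPM across females 1 to 4 and 143, 222, 150.2 and 193 CPM across males 1 to 4. *Slc1a2* (chromosome 2, 102658659 to 102790784), which encodes the main astrocyte glutamate transporter GLT-1, had 221, 374, 114 and 214 CPM in females and 246, 309, 277 and 409.7 CPM in males. Female 3 was lowest for both transporters, male 2 was highest for *Slc1a3* and male 4 for *Slc1a2*, and female 2 lay above the 3 remaining males for each. *Glul*, glutamine synthetase, which turns glutamate into glutamine, had 299, 225, 96.8 and 183 CPM in females and 158, 339, 321 and 474 CPM in males. *Slc7a10*, a transporter of small neutral amino acids such as D-serine, had 11.0, 14.2, 5.48 and 12.6 CPM in females and 12.3, 17.0, 14.6 and 29.0 CPM in males. The 4 genes shared female 3 as the lowest mouse, and male 4 was the highest for 3 of them.

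Among genes of water and ion transport, *Aqp4*, the water channel of astrocyte endfeet, had 34.2, 34.2, 7.94 and 14.4 CPM across females 1 to 4 and 29.7, 63.9, 30.6 and 32.1 CPM across males 1 to 4. *Slc4a4*, a sodium bicarbonate cotransporter, had 60.1, 126, 22.6 and 66.3 CPM in females and 61.7, 108, 73.0 and 138 CPM in males. Male 2 stood above the other males for *Aqp4*, while for *Slc4a4* female 2 and male 4 were the 2 highest mice. *Atp1b2*, a sodium pump subunit, varied less, with 187, 242, 118 and 156 CPM in females and 171, 256, 203 and 276 CPM in males. The genes of the MLC1 and GlialCAM membrane complex were detected in every mouse. *Mlc1* had 13.3, 22.9, 5.62 and 10.9 CPM in females and 19.4, 23.7, 20.3 and 21.8 CPM in males, and *Hepacam*, which encodes GlialCAM, had 36.9, 35, 11.4 and 26.5 CPM in females and 25.4, 54.0, 40.8 and 53.3 CPM in males. All 5 genes were lowest in female 3.

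The connexin genes of astrocyte gap junctions were both detected. *Gja1*, connexin 43, had 41.1, 71.8, 15.1 and 27.0 CPM across females 1 to 4 and 46.6, 79.9, 54.5 and 80.2 CPM across males 1 to 4. *Gjb6*, connexin 30, had 7.22, 11.9, 3.5 and 6.75 CPM in females and 5.70, 14.8, 11.3 and 14.0 CPM in males. Female 3 was again the lowest mouse for both, and female 2 the highest female.

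The metabolic genes divided. *Aldoc*, the brain aldolase, had 92.7, 141, 79.5 and 103 CPM across females 1 to 4 and 149.6, 123, 131 and 189.9 CPM across males 1 to 4. *Aldh1l1*, a folate enzyme widely used to mark all astrocytes, had 9.10, 9.93, 3.45 and 7.65 CPM in females and 9.20, 18.7, 9.74 and 15.6 CPM in males. *Fabp7*, a fatty acid binding protein of radial glia and astrocytes, had 3.77, 1.99, 1.63 and 3.24 CPM in females and 3.09, 7.70, 3.49 and 4.91 CPM in males. These 3 were lowest in female 3. *Acsl6*, an acyl-CoA synthetase that neurons also express, was nearly level, with 103, 121, 94.4 and 113 CPM in females and 99.5, 98.7, 92.2 and 126 CPM in males. *Cbs*, cystathionine beta-synthase, had 4.00, 8.10, 6.36 and 11.6 CPM in females and 5.21, 6.97, 5.45 and 6.55 CPM in males, with female 4 highest and female 1 lowest.

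Of the regulators, *Sox9*, the transcription factor of astrocyte nuclei, had 11.3, 26.0, 13.5 and 20.5 CPM across females 1 to 4 and 26.6, 33.0, 25.8 and 28.7 CPM across males 1 to 4. Only female 2 reached the male range. *Fgfr3*, a fibroblast growth factor receptor, had 27.1, 51.3, 13.7 and 35 CPM in females and 26.2, 61.4, 35 and 52.1 CPM in males. *S100b*, a calcium-binding protein, had 6.11, 5.04, 2.47 and 5.67 CPM in females and 2.61, 7.33, 7.60 and 9.07 CPM in males. Male 1 was close to female 3 for *S100b*, at the low end.

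Secreted and surface genes included the highest of the list, and both steady and variable genes. *Sparcl1* had 312, 563, 154 and 306 CPM across females 1 to 4 and 371, 499.9, 445 and 638 CPM across males 1 to 4. *Agt*, angiotensinogen, which astrocytes make in the brain, had 42.1, 60.5, 15.0 and 25.8 CPM in females and 40.4, 48.0, 49.3 and 86.0 CPM in males. *Htra1*, a secreted protease, had 23.3, 40.8, 8.34 and 16.9 CPM in females and 18.6, 37.7, 31.3 and 49.1 CPM in males. These 3 were lowest in female 3 and highest in male 4. *Clu* had 299, 301, 226 and 213 CPM in females and 280.1, 343, 286 and 279.6 CPM in males. *Ntm*, the adhesion molecule neurotrimin, had 119.7, 139.9, 129 and 136 CPM in females and 147, 96.7, 126 and 108 CPM in males. *Clu* and *Ntm* are known from neurons too. In neither was female 3 the lowest mouse, and the part of neurons in this was not tested. *Gpc5*, a heparan sulfate proteoglycan, had 9.21, 13.4, 9.23 and 14.4 CPM in females and 12.8, 15.8, 13.4 and 20.3 CPM in males.

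Metallothioneins are small cysteine-rich proteins that bind zinc and copper, and MT3 is the brain form that neurons make as well. The 3 genes lie in a cluster on chromosome 8 of mm10, *Mt3* from 94152607 to 94154146, *Mt2* from 94172664 to 94173568 and *Mt1* from 94179082 to 94180327, all on the + strand. *Mt1* had 18.3, 22.6, 10.3 and 20.3 CPM across females 1 to 4 and 15.1, 23.4, 27.3 and 30.2 CPM across males 1 to 4. *Mt2* had 4.33, 5.19, 1.38 and 5.49 CPM in females and 4.23, 4.49, 5.45 and 9.32 CPM in males. *Mt3* had 26.5, 31.6, 22.5 and 30.1 CPM in females and 34.4, 30.9, 32.3 and 25.6 CPM in males. *Mt1* and *Mt2* were highest in male 4, with a range over mice of 2.95-fold and 6.75-fold, whereas *Mt3* ranged 1.53-fold and was second lowest in male 4. The ratio of *Mt1* to *Mt3* in CPM lay between 44.0 per 100 in male 1 and 118 per 100 in male 4. The 250 bases before RefSeq's start site of each gene are shown because these neighbours did not vary alike (GRCm38.p6, + strand, 5′ to 3′). RefSeq's start lies inside the GENCODE gene given above for *Mt1* and upstream of it for *Mt2*, and only for *Mt3* are both the same. Capitals mark matches to the core of the metal response element, searched as TGCGCNC or TGCACNC on both strands.
Mt1, chr8:94178839-94179088: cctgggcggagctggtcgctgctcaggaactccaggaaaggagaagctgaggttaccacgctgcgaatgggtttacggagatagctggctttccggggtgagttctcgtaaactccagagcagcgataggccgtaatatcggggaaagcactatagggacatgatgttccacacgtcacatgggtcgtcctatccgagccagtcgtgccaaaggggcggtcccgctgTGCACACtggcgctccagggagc
Mt2, chr8:94172368-94172617: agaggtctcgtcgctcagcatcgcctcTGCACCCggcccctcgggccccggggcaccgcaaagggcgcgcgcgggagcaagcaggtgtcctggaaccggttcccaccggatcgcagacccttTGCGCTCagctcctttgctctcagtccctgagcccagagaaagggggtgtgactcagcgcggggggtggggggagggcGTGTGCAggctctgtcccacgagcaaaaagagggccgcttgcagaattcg
Mt3, chr8:94152357-94152606: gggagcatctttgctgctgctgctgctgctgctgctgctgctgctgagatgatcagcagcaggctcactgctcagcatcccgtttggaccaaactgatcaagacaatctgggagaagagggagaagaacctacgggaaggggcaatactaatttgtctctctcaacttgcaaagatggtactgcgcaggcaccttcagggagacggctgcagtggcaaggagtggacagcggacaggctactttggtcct
*Mt2* held 3 matches in this window, of which 1 lies on the other strand, *Mt1* held 1 and *Mt3* held 0. Bases outside these 250 were not searched, so these are not counts of all such elements of a gene. Of the 32851 promoters in the table, 21.4% held at least 1. The table gave a promoter for 29 of the 34 matched genes, and 7 of these 29 had a match. A match is a run of letters and not a measured binding site, and the part of these matches in the levels was not tested.

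Of the genes of reactive astrocytes, *Gfap* and *Cd44* varied most. *Gfap* (chromosome 11, 102887336 to 102900912) had 30.9, 6.26, 2.12 and 21.9 CPM across females 1 to 4 and 15.8, 65.5, 26.0 and 15.1 CPM across males 1 to 4, from between 41 and 715 counts. Male 2 was highest, female 1 the highest female, and females 2 and 3 were lowest, which gave a range of 30.9-fold over the mice. *Cd44*, a hyaluronan receptor that microglia and other immune cells also carry, had 13.1, 2.90, 3.26 and 5.04 CPM in females and 6.35, 37.9, 10.6 and 6.55 CPM in males. The same mouse of each sex, male 2 and female 1, was highest for *Gfap* and *Cd44*, and female 1 was also the highest female in summed microglia genes. Male 4 had the second highest summed microglia level of all mice, 4619 CPM, with the lowest *Gfap* of the males and 6.55 CPM of *Cd44*. *Serpina3n* (chromosome 12, 104406729 to 104414329), a secreted protease inhibitor, had 95.2, 55.3, 49.6 and 65.6 CPM in females and 207, 83.6, 119 and 98.0 CPM in males. Male 1 was highest for *Serpina3n* and had the lowest summed microglia level of the males. Which cells gave the RNA of these genes was not tested. *Osmr*, the oncostatin M receptor, had 1.67, 3.21, 2.17 and 1.53 CPM in females and 2.44, 1.56, 1.70 and 1.64 CPM in males, with no order shared with *Gfap*.

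Both markers of strongly reactive astrocytes with few counts stayed at or near the limit of detection. *Lcn2*, lipocalin 2, had 0 counts in all females and in males 1 and 2, and 4 and 2 counts in males 3 and 4. These counts fell on transcripts annotated as retained introns. *Steap4*, a metalloreductase, had 5, 0, 0 and 0 counts across females 1 to 4 and 3, 0, 2 and 0 counts across males 1 to 4. A count of 0 still allows a level of up to 3 counts, or between 0.148 and 0.458 CPM over the mice.

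Over the 32 tested genes, the spread between mice was larger than for most genes. The median SD of log2 CPM over the 8 mice was 0.67 for the astrocyte genes and 0.28 for all genes tested. Within sex the medians were 0.68 in females and 0.45 in males, against 0.23 and 0.24 for all genes tested. Of the 32, 28 lay above the median of all genes, and *Gfap* and *Cd44* lay highest with SDs of 1.48 and 1.18. The 4 below it were *Acsl6*, *Ntm*, *Mt3* and *Clu*, with SDs of 0.17, 0.20, 0.20 and 0.22. Female 3 was the lowest mouse in 24 of the 32 genes, where she was lowest in 17.6% of all genes tested. Male 4 was highest in 15 and male 2 in 12, against 16.7% and 18.5% of all genes tested. Without female 3 the median SD was 0.46, against 0.27 for all genes tested.

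**Figure D3:**
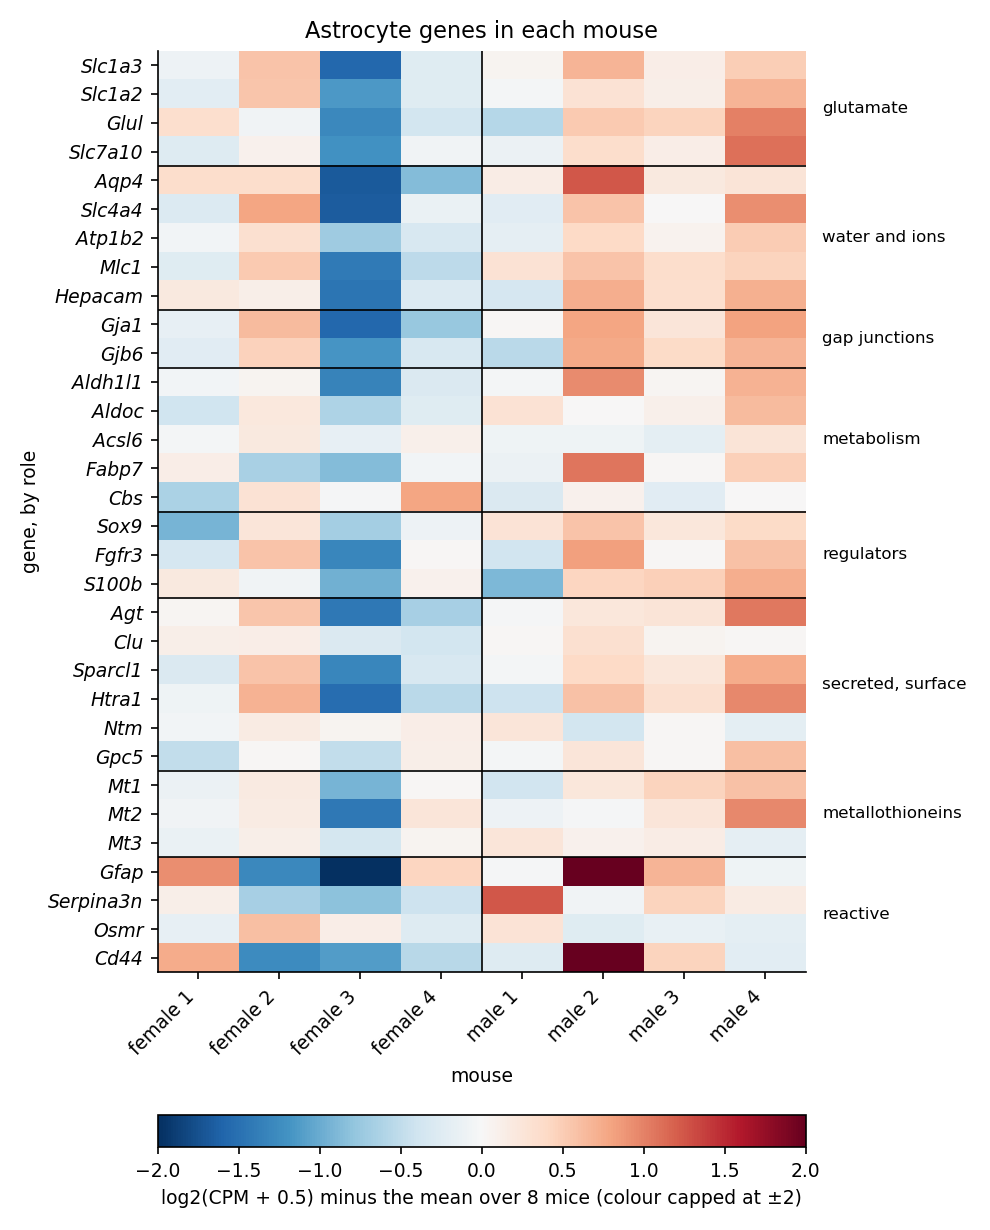
Deviation of log2(CPM + 0.5) from its mean over the 8 mice (colour, capped at 2 in either direction) for the 32 tested astrocyte genes, in rows by role, and the 8 mice in columns. Female 3 is the lowest mouse in 24 rows, male 2 stands out in *Gfap* and *Cd44*, male 1 in *Serpina3n*, and the rows of *Acsl6*, *Ntm*, *Mt3* and *Clu* are pale.

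The genes did not all keep the same proportion to each other. Set against *Slc1a3* in the same mouse, *Gja1* lay between 23.3 and 41.6 per 100 CPM and *Slc1a2* between 139 and 249 per 100 CPM, a range of 1.78-fold for each. *Mlc1* and *Sparcl1* were closest to a fixed proportion, with ranges of 1.44-fold and 1.48-fold. *Aqp4* ranged 2.32-fold. *Gfap* lay between 3.08 per 100 in female 2 and 29.6 per 100 in male 2, a range of 9.61-fold, and *Cd44* ranged 12-fold, between 1.43 and 17.1 per 100 in the same 2 mice. *Acsl6*, *Ntm* and *Mt3*, which were steady in CPM, ranged 4.61-fold, 6.40-fold and 3.69-fold against *Slc1a3*. Female 2 and male 4 thus had high levels of the transporter genes with little *Gfap* beside them, at 3.08 and 7.83 per 100 of *Slc1a3*, and female 1 had 24.0 per 100 at a lower level of the same transporters. Other mice went the other way. Male 2, highest for *Slc1a3*, had 29.6 per 100, and female 3, lowest for both transporters, had 4.61 per 100.

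**Figure D4:**
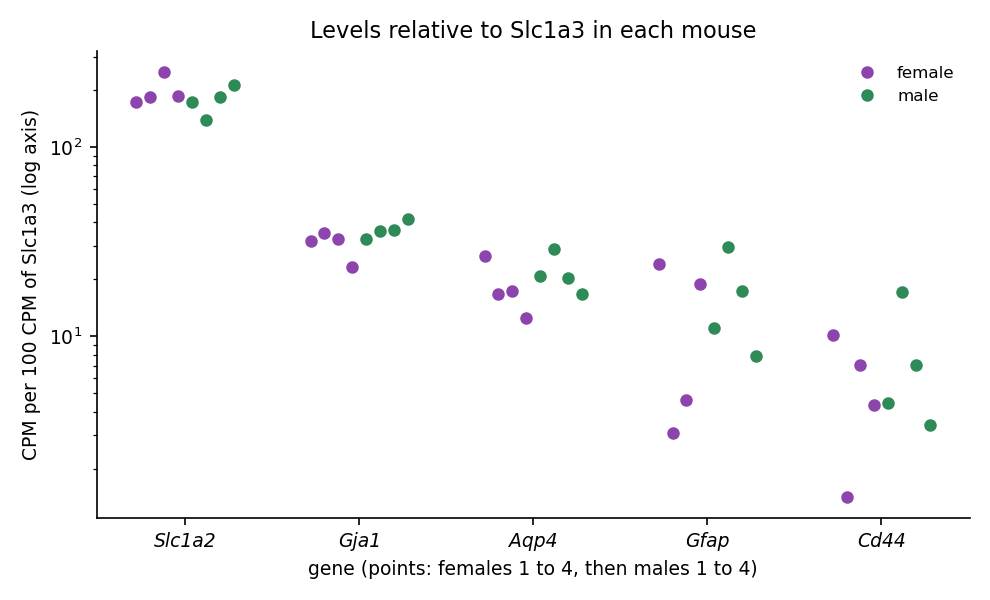
CPM of 5 astrocyte genes per 100 CPM of *Slc1a3* in the same mouse (log axis), with a point per mouse and females and males in different colours. *Slc1a2* and *Gja1* stay within a 1.78-fold range, whereas *Gfap* and *Cd44* spread over 9.61-fold and 12-fold over the 8 mice.

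The study's design compared females with males. None of the 32 astrocyte genes differed between the sexes at a Benjamini-Hochberg adjusted p under 0.05 from the quasi-likelihood test of edgeR over all 15194 genes tested, of which 0.158% differed in either direction and 0.0461% were lower in females. Of the 32, 28 had a lower fitted level in females, where 50.6% of all genes tested did, and the 4 others were *Acsl6*, *Cbs*, *Ntm* and *Osmr*. At an unadjusted p under 0.05, 4 were lower in females, against 10.7% of all genes tested, and 0 were higher, against 9.86% of all genes tested. In no gene of the 32 did the sexes separate without overlap, which 10.4% of all genes tested did. The median log2 fold change, female minus male, was -0.54 over the 32 genes and -0.0043 over all genes tested. Female 3 carried part of this median, which was -0.34 without her and -0.26 without her and male 2, and the number lower in females was then 28 and 27.

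**Figure D5:**
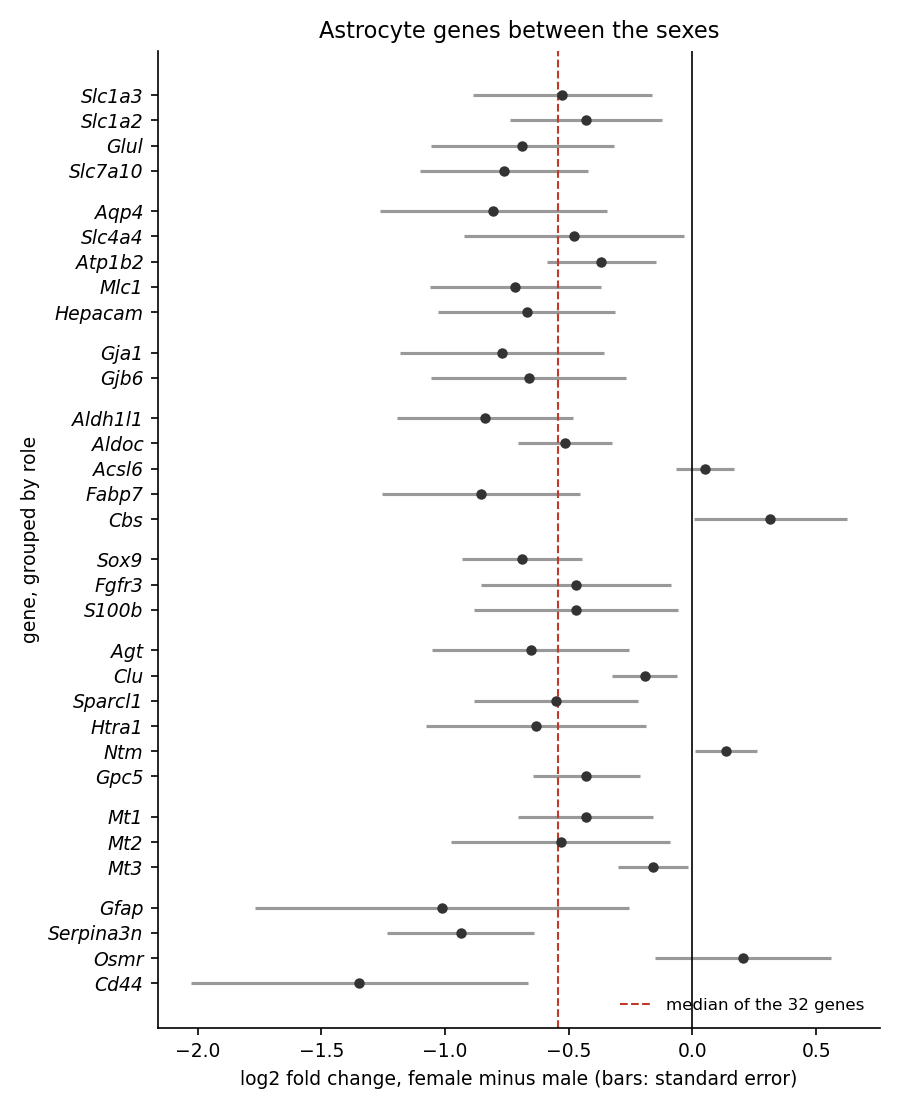
Log2 fold change, female minus male, of the 32 tested astrocyte genes by role, with the standard error from edgeR as a bar. The points of 28 genes lie left of 0, around a median of -0.54, and none of the 32 passed the adjusted p.

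The smallest p among the 32 was that of *Serpina3n*, which averaged 66.4 ± 20.3 CPM over the females and 127 ± 55.3 CPM over the males (SD, n = 4 mice of each sex). Its log2 fold change was -0.94 with a standard error of 0.30 (unadjusted p = 0.0111, adjusted p = 0.150 by edgeR). It was the only one of the 32 to pass in DESeq2's Wald test, with an adjusted p of 0.0136, in a fit that called 7.91% of the genes for which it gave an adjusted p. Over the other 19 alternative fits the adjusted p of *Serpina3n* lay between 0.0623 and 0.420. Male 1 set much of the size of the difference, and without it the log2 fold change was -0.60. Female 1, with 95.2 CPM, lay above male 2, with 83.6 CPM. *Sox9* averaged 17.8 ± 6.70 CPM over the females and 28.5 ± 3.21 CPM over the males (log2 fold change -0.69, standard error 0.24, adjusted p = 0.179 by edgeR). *Aldoc* averaged 104 ± 26.5 CPM over the females and 148 ± 29.9 CPM over the males (log2 fold change -0.52, standard error 0.19, adjusted p = 0.190 by edgeR). *Aldh1l1* averaged 7.53 ± 2.88 CPM over the females and 13.3 ± 4.62 CPM over the males (log2 fold change -0.84, standard error 0.36, adjusted p = 0.229 by edgeR). These 4 were the genes under an unadjusted p of 0.05.

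*Gfap* averaged 15.3 ± 13.4 CPM over the females and 30.6 ± 23.8 CPM over the males, and its log2 fold change was -1.01 with a standard error of 0.75 (adjusted p = 0.469 by edgeR). The sexes overlapped, and single mice moved the difference from -0.32 without male 2 to -1.61 without female 1. Without both female 3 and male 2 it was 0.056, in the other direction. *Cd44* had the largest fitted difference of the 32, a log2 fold change of -1.35 with a standard error of 0.68 (adjusted p = 0.293), and it was -0.38 without male 2 and -2.03 without female 1. By role, the median log2 fold change was -0.61 for the 4 glutamate genes, -0.67 for the 5 water and ion genes, -0.71 for the 2 connexins, -0.52 for the 5 metabolic genes, -0.47 for the 3 regulators, -0.49 for the 6 secreted and surface genes and -0.43 for the 3 metallothioneins. For the 4 tested reactive genes it was -0.97. The summed core level averaged 634 ± 310.1 CPM over the females and 925 ± 223 CPM over the males, a log2 ratio of the means of -0.55, which was -0.29 without female 3 and -0.88 without female 2.

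Other gene lists differed between the same mice. The 12 microglia genes all had lower fitted levels in females (median log2 fold change -1.42), and the 10 neuron genes all had higher ones (median 0.17). Of all genes tested, 50.6% had lower fitted levels in females. Of the neuron genes, 4 had every female above every male, as had 6.48% of all genes tested. The 10 genes of the response to dissociation, such as *Fos* and *Hspa1a*, summed to between 1781 and 2670 CPM in females and between 2662 and 3910 CPM in males, with a median of -0.59 on the log2 scale between the sexes. The 5 genes of oligodendrocyte precursors, such as *Pdgfra*, summed to between 79.7 and 206 CPM in females and between 123 and 592 CPM in males. All 5 were lower in females (median log2 fold change -1.04) and lowest in female 3. The 10 genes of oligodendrocytes, such as *Mbp*, summed to between 546 and 2583 CPM in females and between 1019 and 2252 CPM in males. All 10 were lower in females (median -0.69), but 9 were lowest in female 4 and 6 highest in female 1. Of 8 endothelial genes 6 were lower in females (median -0.39), as were 4 of 6 tested genes of ependymal cells and tanycytes (median -0.40), whereas the 4 genes *Sst*, *Gad1*, *Gad2* and *Slc32a1* of the sorted neurons were higher (median 0.22). None of the genes of these lists passed the adjusted p in edgeR's test, which 0.158% of all genes tested did. At an unadjusted p under 0.05, 6 microglia, 9 dissociation, 3 precursor and 1 oligodendrocyte genes were lower in females, against 10.7% of all genes tested, and 4 neuron genes and 1 gene of ependymal cells and tanycytes were higher, against 9.86%. DESeq2 called 0, 5, 1, 0, 4 and 1 genes of these lists in that order, where it called 7.91% of all genes with an adjusted p. It called none of the endothelial and sorted neuron genes, which also had 0 under an unadjusted p of 0.05. The part of these lists in the astrocyte values was not tested.

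A longer list of 40 further astrocyte genes was counted in the same way. Of its 39 tested genes, 35 were lower in females (median log2 fold change -0.58 over the 39), where 50.6% of all genes tested were. In edgeR's test 0 passed the adjusted p, which 0.158% of all genes tested did. At an unadjusted p under 0.05, 8 were lower in females, against 10.7% of all genes tested, and 0 were higher, against 9.86%. DESeq2 called 0 of the 36 genes for which it gave an adjusted p, where it called 7.91% of all such genes. Every male lay above every female in 2 of the 39, *Slc14a1* and *Cxcl14*, where this held for 3.94% of all genes tested. The 3 of highest mean TPM were *Apoe*, the lipid carrier that microglia make as well, *Ttyh1*, a membrane protein of glia, and *Ndrg2*. *Apoe* had 949.6, 376, 121 and 243 CPM across females 1 to 4 and 371, 1305, 742 and 661 CPM across males 1 to 4, highest in male 2 and female 1. *Ttyh1* had 122, 129, 121 and 114 CPM in females and 98.0, 124, 136 and 149.9 CPM in males. *Ndrg2* had 47.5, 61.9, 30.2 and 45.3 CPM in females and 55.0, 71.8, 50.6 and 73.4 CPM in males. Female 3 was the lowest mouse in 33 of the 39 genes.

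Of 31 further genes of reactive astrocytes, 24 could be tested. Of these, 22 were lower in females (median log2 fold change -0.97 over the 24), where 50.6% of all genes tested were. In edgeR's test 0 passed the adjusted p, which 0.158% of all genes tested did. At an unadjusted p under 0.05, 3 of the 24 were lower and 1 was higher in females, where 10.7% and 9.86% of all genes tested were. DESeq2 called 1 gene, where it called 7.91% of all genes with an adjusted p. That gene was *Vim*, vimentin, an intermediate filament that microglia and vascular cells make too, with 25.6, 16.5, 15.5 and 17.0 CPM across females 1 to 4 and 27.2, 84.6, 40.2 and 28.2 CPM across males 1 to 4. Every male lay above every female for *Vim*, 1 of the 24 genes, where this held for 3.94% of all genes tested. The log2 fold change of *Vim* was -1.27 with a standard error of 0.36 (adjusted p = 0.128 in edgeR). Male 2 was highest in 14 of the 24 genes. The highest in mean TPM were *H2-D1*, *Amigo2* and *Srgn*. *H2-D1*, an MHC class I gene, had 539, 93.0, 49.4 and 112 CPM in females and 213, 1157, 350.3 and 465 CPM in males, with male 2 and female 1 again highest in their sex. *Amigo2*, which some neurons express, had 152, 167, 173 and 174 CPM in females and 169, 132, 134 and 129 CPM in males. *Srgn*, a proteoglycan of immune cells, had 32.5, 8.25, 5.72 and 13.1 CPM in females and 11.9, 51.8, 33.4 and 44.8 CPM in males.

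How reads were assigned to transcripts limits some of these values. In the most counted transcript, 23.4% of the 31-base words of *Glul* and 21.6% of those of *Serpina3n* also occur in transcripts of other genes, led by the pseudogene *Glns-ps1* and by *Serpina3f*, so that their counts may be split with these. On the opposite strand, 41.3% of the words of *Mt2* lie in *Gm45774* and 16.8% of those of *Slc7a10* in *Lrp3*. Whether the counting used strand is not given in the sources used here. Apart from these 4, no matched gene shared over 10% of its words on either strand. TPM gives weight to short transcripts, and for *Gfap* a transcript of 356 bases that codes for no protein, Gfap-203, held 7.96% of the counts but 55.0% of the TPM. For *Aqp4* and *Slc4a4*, transcripts under 500 bases held 61.8% and 60.5% of the TPM and 11.0% and 9.03% of the counts. With CPM divided by the length of the most counted transcript, *Gfap* had 8.66 and *Slc1a3* 36.1 CPM per kilobase, and 19 of the 34 genes lay above *Gfap*. On this scale *Clu*, with 154 CPM per kilobase, lay above *Sparcl1*, with 149.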

How the data were processed

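Sorted cells of 8 mice were sequenced as single-end libraries. With kallisto 0.46.2 the authors matched the reads to the transcriptome of mm10 and deposited estimated counts, which need not be whole, and TPM, which appears here as a score because each mouse's values came in 2 blocks, each with its own TPM summing to 1000000. Estimated counts of both blocks were summed, joined to genes with GENCODE M21, summed per gene and rounded. TPM was averaged over the blocks. Unmatched transcripts held 0.429% to 0.611% of the counts.

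The comparison of the sexes used edgeR 4.0.16 under R 4.3.3, with TMM factors, its filter on low counts at the default with sex as the group, a quasi-likelihood fit with no other term, and a threshold of 0.05 on p adjusted by Benjamini-Hochberg over all genes tested. Log2 CPM used a prior count of 2. DESeq2 1.42.0 was an alternative and is the authors' tool. The other alternatives were RLE and upper quartile factors, no filter, a filter of 10 counts in 4 mice, a transcript length offset, a replicate block, each block alone, no *Lars2* and each mouse left out. Library totals alone and the fit without female 3 and male 2 were chosen after seeing the data. The test was tried on simulated counts.

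The 35 genes and all lists were chosen with earlier results of these data known. Per-mouse values are given for *Gfap* and for the 3 highest and 3 lowest genes by TPM of each role, which covers every gene measured, and for further lists only for genes past the adjusted p and the 3 highest by TPM, with *Vim* added after its values were seen. Python 3.11.15 with pandas 2.3.3 was used for joining and matplotlib 3.10.9 for plots. Depth was 7.83 to 17.6 estimated counts per mouse in units of 1000000.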

Additional observations from a re-analysis of the deposited data

Results flagged for a closer look

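Within each sex, the gap between the highest or lowest mouse and its neighbour was compared with the range of the 4 mice on the log2 scale for each of the 32 tested genes, in 64 groups of 4 in all. By chance about 1 in 20 such groups passes Dixon's 95% critical value, and 2 did. For *Aqp4*, male 2 lay above the other males with 63.9 CPM, against 29.7 to 32.1 CPM, and the gap was 0.899 of the range. For *Clu*, male 2 lay above with 343 CPM, against 279.6 to 286 CPM, and the gap was 0.897 of the range.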

How the results depend on the processing

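The number of astrocyte genes called between the sexes was 0 in every fit except DESeq2's, which called 1, and the number lower in females stayed between 27 and 30 of 32. Of 640 values of single genes under 20 alternative fits, 633 kept their direction and side of the threshold, 1 passed it (*Serpina3n* in DESeq2) and 6 turned direction. *Acsl6* turned to -0.014 without female 2 and to -0.0029 without male 3 (up to 0.15 without other mice), and *Gfap* to 0.056 without female 3 and male 2. *Osmr* turned to -0.81 with the length offset, to -0.25 in the second block alone and to -0.033 without female 2 (up to 0.38 without other mice). The number of all genes called was 24, but 1014 with DESeq2, 13 with the length offset, 1 with the replicate block, 10 with library totals alone, 8 without female 3 and male 2, and 8 to 415 with each mouse left out (415 without female 1, 411 without male 1, and 8 to 13 without any other mouse). Same-numbered females and males did not deviate together (correlations from -0.396 to 0.0719), and female 3 with male 1 reached 0.416. Whether the numbers pair the mice cannot be told from so few mice. The fold range of the summed core level was 1.95 to 4.28 with each mouse left out and 2.72 over all astrocyte genes. Genes with few counts, such as *Osmr*, *Mt2* and *Fabp7*, are limited by depth.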

Other observations

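The transcripts behind the astrocyte genes also varied. Of the 32 tested genes, 24 had over 90% of their counts on transcripts annotated as protein-coding and 2 had under 50%, *Aldh1l1* with 46.5% and *Osmr* with 39.2%. For *Aldh1l1*, Aldh1l1-207, which is annotated as subject to nonsense-mediated decay, held 41.2% of the counts and the coding transcript Aldh1l1-201 held 37.6%. In single mice the share of the former ran from 0% to 86.8% and that of the latter from 0.00321% to 97.8%, on 65 to 204 counts per mouse, and the transcripts are of nearly the same length, with 3025 and 3052 bases. For *Osmr*, the retained-intron transcript Osmr-205 held 46.9% of the counts. For *Slc1a3*, the retained-intron transcript Slc1a3-205 held 20.9% of the counts and 55.2% of the TPM, and between 15.1% and 31.7% of the counts in single mice. The 2 blocks of a mouse gave close values for most genes, with a median absolute log2 ratio of 0.13 over the genes, from 0.038 for *Clu* to 0.88 for *Osmr*.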
